A study of Mus musculus with 12 samples.

Results

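The glucuronosyl, glutathione and sulfo transferases were taken as every protein-coding gene whose symbol begins with Ugt and a digit, with Sult and a digit, or with Gst, a class letter (a, k, m, o, p, t or z) and a digit. The rule used names only. It found 45 genes of 15473 protein-coding genes in either table, namely 21 Gst, 16 Ugt and 8 Sult genes. Of these, 44 had a row for kidney, 38 had one for F4/80+ cells, and 37 had both. Gsta1, Gstp3, Gstt4, Sult2b1, Ugt1a1, Ugt1a10 and Ugt1a9 were in the kidney table only, and Ugt1a5 was in the F4/80+ table only. The annotation held 65 such genes, and those without a row were not analysed here. Of the members, 40 passed the filter on low counts in kidney, 34 in F4/80+ libraries and 36 in the comparison of both.

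These enzymes carry out the conjugation step of drug and hormone disposal. A Ugt enzyme of the endoplasmic reticulum moves a sugar, usually glucuronic acid from UDP-glucuronate, onto a lipid-soluble molecule. A Gst enzyme joins the tripeptide glutathione to reactive, electrophilic compounds, and a Sult enzyme of the cytosol moves sulfate from the donor PAPS onto phenols, amines and steroids. In kidney the epithelium of the proximal tubule is the best known site of all these reactions, and its membrane transporters pass the conjugates into urine.

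The mice were edited with CRISPR-Cas9 to be homozygous for the Arg allele (Arg/Arg) or the Trp allele (Trp/Trp) of a coding polymorphism in Sh2b3, the gene of the adaptor protein LNK. All of them were given the pressor peptide angiotensin II for 4 weeks, so no group shows the level without it, and age and sex were not given. Transcripts of the Y-linked genes Ddx3y, Eif2s3y and Kdm5d were present in every library, as in males. Xist, which is expressed in females, had no row for F4/80+ cells. RNA selected for poly(A) tails was sequenced from 12 libraries in 4 groups of 3 biological replicates, which were whole kidney of either genotype and F4/80+ cells of either genotype. F4/80, the product of Adgre1, marks the surface of macrophages in mice, and those cells came from separate kidneys by a Percoll gradient and magnetic beads.

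The 12 libraries held 19586919 to 54686600 counts in kidney and 35883980 to 51603745 in F4/80+ samples. Nuclear protein-coding genes took 17785672 to 49994052 of them in kidney and 6879337 to 11143970 in F4/80+ samples. The mitochondrial share was 7.86 to 9.35% and 70.1 to 83.6%. The F4/80+ libraries as a group did not hold more macrophage marker RNA than kidney. Adgre1 itself was at 1.26 to 16.7 CPM in them and at 4.11 to 8.32 CPM in kidney. A list of 18 macrophage markers summed to 75.0 to 301 CPM in F4/80+ libraries, where Fcgr1 had no row, and to 177 to 309 CPM in kidney. The 20 proximal tubule markers summed to 22028 to 68068 CPM in F4/80+ libraries and to 40871 to 48631 CPM in kidney, and the F4/80+ libraries are therefore called preparations here, not macrophages. CPM is the count of a gene scaled to all nuclear protein-coding counts of its library. Among the kidney libraries, Trp/Trp replicate 1 stood apart, with 1029 CPM of fibroblast, pericyte and smooth muscle markers where the others held 496 to 531.

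Promoter windows from RefSeq (build GRCm38.p6) were found for 41 of the 45 genes, 51 windows in all. Among 6 motif forms searched on both strands of the 250 bases before each start, an element of the tubule and liver factor HNF1, seen in capitals in the sequences given here, was in 5 member windows, or 9.80%, and in 0.371% of all 32851 windows. The stretches that hold it are printed because the ratio of that share to the background was the largest of the 6 forms, with the motif in capitals as read on the strand of the gene. The forms and the window were settled after a first look at the matches, so the count is a description. The Ugt1a genes among them share a locus, so their windows are not independent. Mean kidney levels of Ugt1a1, Ugt1a9 and Sult2a3 were only 0.300, 0.244 and 0.139 CPM.
Sult1d1: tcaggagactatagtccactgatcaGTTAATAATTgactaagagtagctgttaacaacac
Sult2a3: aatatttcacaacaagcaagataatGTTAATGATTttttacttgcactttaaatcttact
Ugt1a1: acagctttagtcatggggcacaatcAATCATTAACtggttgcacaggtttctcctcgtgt
Ugt1a10: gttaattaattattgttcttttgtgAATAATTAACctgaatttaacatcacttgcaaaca
Ugt1a9: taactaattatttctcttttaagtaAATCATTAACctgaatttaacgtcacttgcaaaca
The first lies at chr5:87569051-87569110 and the second at chr7:14123065-14123124, both on the minus strand, and the motif starts 79 and 51 bases before the start of transcription. The Ugt1a stretches are on the plus strand at chr1:88211889-88211948, chr1:88055311-88055370 and chr1:88070659-88070718, with the motif in reverse, 45, 75 and 95 bases before the start.

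The 6-base beginning of that motif alone, GTTAAT, which overlaps every match above, was in 10 of 51 member windows (19.6%) and in 6.43% of all windows. The core TGACNNNGC of the antioxidant response element, read by the stress factor NRF2, was in 3 member windows (5.88%), those of Gsta3, Gstm5 and Gstm7, and in 10.2% of all windows. A related form of that element adds a final A but allows C or G after TGA, so it can match where the core does not. It was in 7 member windows (13.7%) and in 6.26% of all windows. Those members were Gsta3, Gstm5, Gstp1, Gstp2, Sult1c2, Ugt1a1 and Ugt1a7c, of which only Gsta3 and Gstm5 also held the core. In Gsta3 the related form extends the match of the core. The core GCGTG of the dioxin response element was in 11 member windows (21.6%) and in 28.2% of all, and CAAAGTC, which HNF4 can bind, was in 1 (1.96%), that of Ugt8a, and in 3.84% of all. A match of letters does not show that a factor binds there.

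The level of each enzyme was described first, by the 4 members of each family with the highest mean per length in either sample type. Between genes, levels are given as CPM per kilobase of exon. In kidney the highest were Ugt3a2 at 469 ± 26.1 CPM per kb, Gstm1 at 393 ± 37.3, Sult1d1 at 381 ± 52.0 and Ugt2b38 at 329 ± 37.6 (SD, n = 6). In F4/80+ libraries they were Ugt2b38 at 587 ± 309, Gstm1 at 517 ± 135, Ugt3a2 at 481 ± 193 and Sult1d1 at 238 ± 95.6 (SD, n = 6), and the first 3 of these did not differ beyond their spread. Human UGT3A2 is known to use UDP-glucose and UDP-xylose rather than UDP-glucuronate, Gstm1 is a mu-class enzyme, and Sult1d1 sulfates catecholamines and other amines in mice. A few enzymes made up most of the Ugt and Sult counts, with shares given below. The Gst counts were spread more widely, with Gstm1 at 23.1 to 28.2% of the family's CPM in kidney and 30.4 to 37.9% in F4/80+ libraries.

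**Figure D1:**
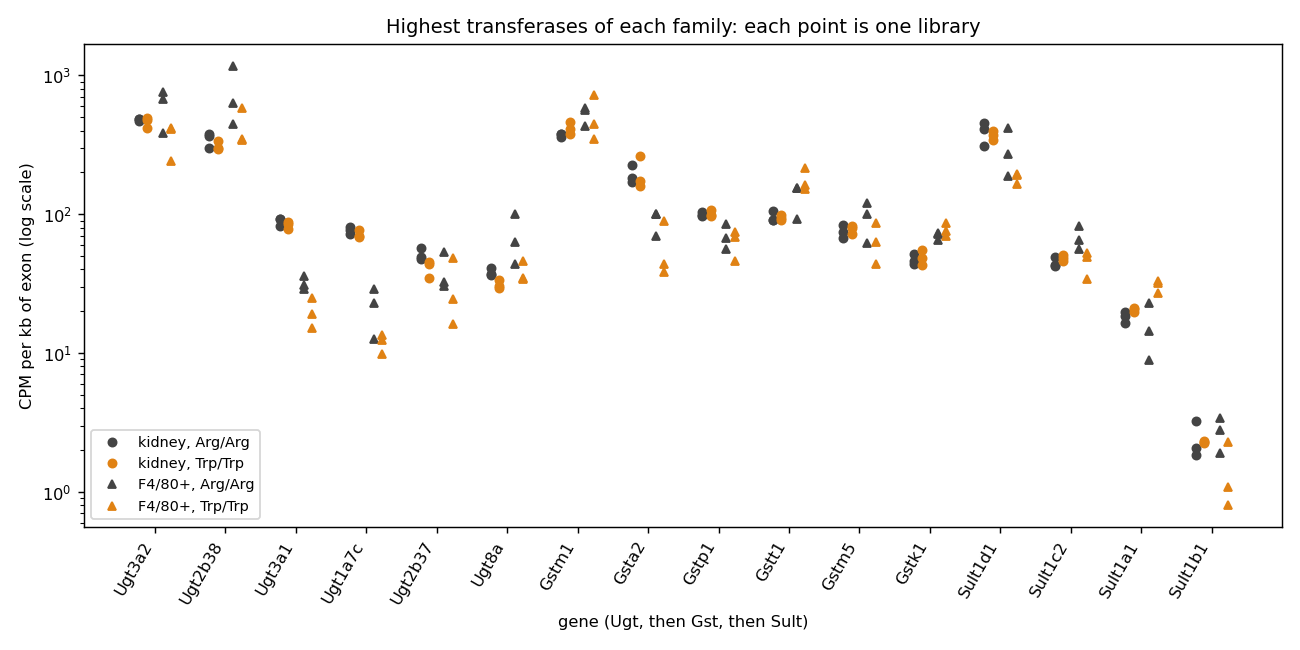
Level in CPM per kilobase of exon (log axis) of the 16 genes that were among the 4 highest of their family in either sample type, in each library, with kidney as circles, F4/80+ as triangles, Arg/Arg in grey and Trp/Trp in orange. Kidney points lie close together, while F4/80+ points of the same gene spread over a wider range, as for Ugt2b38 and Sult1a1.

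Within the Ugt family, Ugt3a2 (chr15:9335550-9370955) held 48.1 to 51.7% of the family's CPM in every kidney library and 43.8 to 57.4% in F4/80+ libraries. In Arg/Arg kidneys it was at 1509, 1492 and 1444 CPM, and in Trp/Trp kidneys at 1300, 1471 and 1520 CPM (replicates 1 to 3, as in every such list here). In F4/80+ libraries it was at 1190, 2079 and 2350 CPM in Arg/Arg and at 1295, 755 and 1275 CPM in Trp/Trp. The kidney libraries thus lay close to each other, and the F4/80+ libraries lay on both sides of them. Ugt2b38 (chr5:87409942-87424203), of the steroid-handling 2B subfamily, was second to Ugt3a2 per length in kidney. Its mean was above that of Ugt3a2 in F4/80+ libraries, though Arg/Arg replicate 2 and Trp/Trp replicate 1 had the reverse order. It was at 718, 693 and 568 CPM in Arg/Arg kidneys and at 564, 555 and 640 CPM in Trp/Trp kidneys. The F4/80+ values were 845, 1196 and 2212 CPM in Arg/Arg and 648, 657 and 1103 CPM in Trp/Trp. Since 37.4% of its 50-base words also occur in transcripts of other genes, above all Ugt2b5, part of its count may belong to a neighbour.

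Ugt3a1 (chr15:9276888-9315032), whose human counterpart uses UDP-N-acetylglucosamine, was at 245, 248 and 219 CPM in Arg/Arg kidneys and 210, 236 and 227 CPM in Trp/Trp kidneys. Its F4/80+ values were 77.3, 82.9 and 95.7 CPM in Arg/Arg and 51.1, 40.1 and 67.0 CPM in Trp/Trp, all below every kidney library. Ugt1a7c, a phenol-handling enzyme of the Ugt1a locus (chr1:88095062-88220002), was at 340, 325 and 302 CPM and at 292, 326 and 290 CPM in kidneys of the respective genotypes. In F4/80+ libraries it was at 53.3, 95.9 and 122 CPM in Arg/Arg and at 52.0, 41.6 and 57.0 CPM in Trp/Trp, again below every kidney library. The Ugt1a genes splice different first exons to shared later exons, and the 8 members of this locus shared 50.3 to 82.7% of their exon bases with other annotated genes. Their single counts are therefore uncertain, and their sum is firmer. It was 311 to 358 CPM in kidney and 49.2 to 132 CPM in F4/80+ libraries.

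Ugt8a (chr3:125865271-125938619), which uses UDP-galactose to make the myelin lipid galactosylceramide, and Ugt2b37 were the other members of this choice, at 53.6 ± 25.3 and 34.1 ± 14.1 CPM per kb in F4/80+ libraries (SD, n = 6). There Ugt8a was at 198, 283 and 457 CPM in Arg/Arg and 155, 158 and 207 CPM in Trp/Trp, and Ugt2b37 was at 57.7, 61.8 and 100.4 CPM and at 46.0, 30.5 and 91.2 CPM. Of the members with a mean of at least 10 CPM in kidney, Ugt1a10 varied most there, at 11.1, 17.9 and 21.6 CPM in Arg/Arg and 27.6, 13.0 and 14.1 CPM in Trp/Trp. Its highest value was in the library that stood apart. Ugt1a9 had no count in Trp/Trp kidney replicate 3 and was below 1 CPM in each of the others.

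Among the Gst genes, Gstm1 (chr3:108012255-108017973) was at 554, 554 and 531 CPM in Arg/Arg kidneys and at 680, 553 and 606 CPM in Trp/Trp kidneys. Its F4/80+ values were 637, 862 and 825 CPM in Arg/Arg and 1071, 514 and 659 CPM in Trp/Trp. The genotypes overlapped in both sample types, and 18.9% of its words were shared with other transcripts. Gsta2 (chr9:78331018-78355788), an alpha-class enzyme that also reduces lipid peroxides, was second in kidney at 196 ± 39.9 CPM per kb (SD, n = 6). It was at 202, 216 and 264 CPM in Arg/Arg kidneys and 311, 189 and 205 CPM in Trp/Trp kidneys, and 49.8% of its words were shared, above all with Gsta1. In F4/80+ libraries it was at 82.6, 117 and 118 CPM in Arg/Arg and 105, 45.1 and 51.2 CPM in Trp/Trp, below every kidney library.

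Gstp1 (chr19:4035407-4037985), the pi-class enzyme known for inactivating electrophilic drugs, varied least of the Gst genes above 10 CPM in kidney, with 151, 152 and 160 CPM in Arg/Arg and 153, 150 and 167 CPM in Trp/Trp. Its F4/80+ values were 86.9, 130 and 104 CPM and 115, 71.0 and 107 CPM. It shared 33.7% of its words with Gstp2. The theta-class gene Gstt1 (chr10:75783813-75798584) went the other way, from 138, 138 and 161 CPM and 150, 144 and 139 CPM in kidney to 236, 236 and 140 CPM in Arg/Arg and 326, 230 and 247 CPM in Trp/Trp F4/80+ libraries. Gstk1, the kappa-class enzyme of mitochondria and peroxisomes, was at 106, 108 and 94.9 CPM and at 128, 102 and 111 CPM in F4/80+ libraries, the narrowest spread of any member above 10 CPM there. Gstm5 was at 79.2, 155 and 128 CPM in Arg/Arg and 110, 55.9 and 81.1 CPM in Trp/Trp F4/80+ libraries.

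Sult1d1 (chr5:87554645-87569027) held 85.8 to 90.6% of the Sult CPM in kidney and 75.3 to 85.4% in F4/80+ libraries. It was at 765, 1006 and 1125 CPM in Arg/Arg and 915, 979 and 838 CPM in Trp/Trp kidneys. The F4/80+ values were 462, 666 and 1028 CPM in Arg/Arg and 404, 467 and 479 CPM in Trp/Trp. Sult1c2 (chr17:53829637-53846339) followed at 46.5 ± 3.29 CPM per kb in kidney and 56.5 ± 15.9 in F4/80+ libraries (SD, n = 6). Sult1a1 (chr7:126672865-126676432), a phenol sulfotransferase, was at 19.4 ± 1.69 and 23.0 ± 9.66 CPM per kb, and Sult1b1, which accepts thyroid hormones, at 2.33 ± 0.470 and 2.04 ± 0.983. Sult1c2 was at 90.5, 80.0 and 77.9 CPM in Arg/Arg and 93.4, 88.6 and 84.8 CPM in Trp/Trp kidneys. The order of these enzymes by level was the same in both sample types.

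Over all members the summed level was 6094 to 6387 CPM in kidney and 4008 to 8806 CPM in F4/80+ libraries. Of the 22 members with a mean of at least 10 CPM in both sample types, 22 had a larger SD relative to the mean in F4/80+ libraries, with a median of 35.8% against 9.10% in kidney. The spread between replicates over all genes moved in the same direction, with a common biological coefficient of variation of 0.28 in F4/80+ libraries and 0.101 in kidney.

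The comparison of sample types asked how the enzymes in the F4/80+ preparation differ from those of whole kidney. Of the 36 members tested, 9 were higher and 14 lower in F4/80+ libraries, by edgeR's quasi-likelihood test adjusted over 13578 genes after Benjamini and Hochberg. The 23 calls were 63.9% of members, where 63.7% of all genes were called, 26.4% higher and 37.4% lower, so the members' share was near the background. The 14 called Gst genes were 5 higher and 9 lower, the 7 Ugt genes 3 higher and 4 lower, and the 2 Sult genes 1 of each. The median log2 fold change was -0.14 over members and -0.13 over all genes. With TMM scaling the members called were 11 higher and 14 lower, the median of all genes was -0.01, and the 2 members that changed sign, Ugt3a2 and Ugt2b5, passed under neither scaling. In bulk RNA, fewer cells of a type and less RNA per cell cannot be told apart. Each sample type also had its own deposited counts. A difference in how these were made or filtered cannot be told apart from one of sample type.

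**Figure D2:**
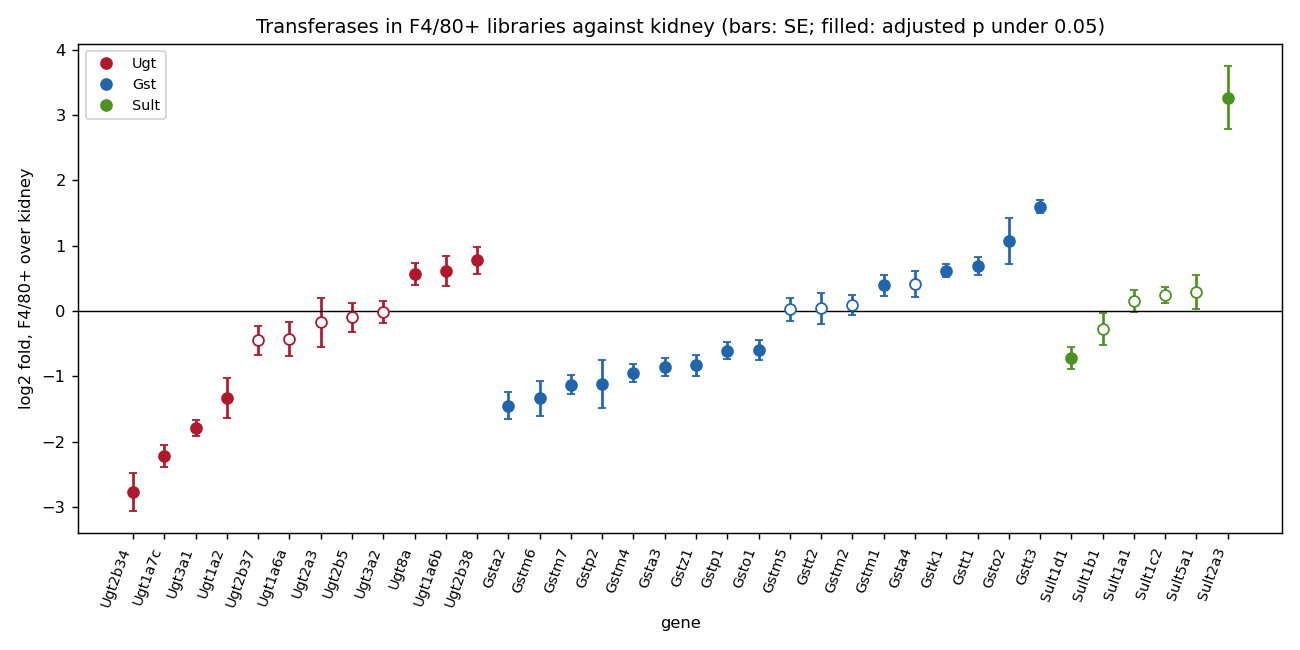
Log2 fold change of each of the 36 members in F4/80+ over kidney libraries, with bars for the SE and filled points for an adjusted p under 0.05. Ugt2b34, Ugt1a7c and Ugt3a1 lie lowest, and Sult2a3 and Gstt3 highest.

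Ugt2b34 (chr5:86889767-86906937) fell most, from 25.5, 18.7 and 18.8 CPM in Arg/Arg and 20.3, 20.7 and 16.1 CPM in Trp/Trp kidneys to 0.718 to 4.70 CPM in F4/80+ libraries. Its log2 fold change was -2.77 ± 0.29 (SE, edgeR adjusted p = 2.46e-06), with no overlap between the sample types. Ugt1a7c followed at -2.21 ± 0.17 (edgeR adjusted p = 1.56e-07) and Ugt3a1 at -1.79 ± 0.12 (edgeR adjusted p = 6.21e-08). Among Gst genes, Gsta2 was lower by -1.45 ± 0.21 (edgeR adjusted p = 4.27e-05). Gstm6, at 1.5 to 2.6 CPM in kidney and 0.581 to 1.27 CPM in F4/80+ libraries, was lower by -1.34 ± 0.26 (edgeR adjusted p = 0.000589).

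Gstt3 (chr10:75774115-75781414), a theta-class neighbour of Gstt1, rose from 37.1 to 41.9 CPM in kidney to 90.0 to 137 CPM in F4/80+ libraries. That was a log2 fold change of 1.60 ± 0.10 (edgeR adjusted p = 3.52e-08), or 3.03-fold, with every F4/80+ library above every kidney library. Gstt1 rose by 0.69 ± 0.14 (edgeR adjusted p = 0.000663), although Arg/Arg F4/80+ replicate 3, at 140 CPM, lay within the kidney range. Ugt2b38 rose by 0.78 ± 0.21 (edgeR adjusted p = 0.00574), although Trp/Trp F4/80+ replicates 1 and 2 lay within the kidney range. They were at 648 and 657 CPM, and kidney was at 555 to 718 CPM. Sult2a3, of the hydroxysteroid-sulfating 2A subfamily, rose by 3.27 ± 0.48 (edgeR adjusted p = 5.24e-05). It was at 0.718 to 1.84 CPM in F4/80+ libraries and 0.0200 to 0.281 CPM in kidney, on 8 to 14 and 1 to 8 counts. Sult2a3 passed the filter on low counts only through the F4/80+ libraries, where it was higher, so its p is no independent support. Gsto2, an omega-class enzyme that reduces dehydroascorbate, was at 0.956 to 1.75 CPM in kidney and 0.881 to 5.29 CPM in F4/80+ libraries. It had 1.07 ± 0.35 (edgeR adjusted p = 0.0164), and did not pass without Arg/Arg F4/80+ replicate 1 (0.75, edgeR adjusted p = 0.0638).

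Genes that supply or follow these enzymes were counted by list, to be read against the 26.4% of all genes called higher and the 37.4% called lower, and no list was tested against that background. Of 14 tested genes that transport organic anions or conjugates or hydrolyse conjugates, 2 were higher and 8 lower. The organic anion transporter Slco4c1 was at -3.29 ± 0.19 and the efflux pump Abcc4 at -1.24 ± 0.13. Of 16 genes of the mercapturate pathway, which trims glutathione conjugates for urine, 2 were higher and 7 lower, with Dpep1, a dipeptidase, at -1.78 ± 0.18 and Ggt5 at -2.92 ± 0.33. Of 6 genes of UDP-glucuronate and related sugar nucleotides, 2 were higher and 3 lower. The lower ones included Ugdh, which makes UDP-glucuronate, at -1.46 ± 0.15 and Uxs1, which consumes it, at -0.99 ± 0.10. Of 11 genes of PAPS and sulfate supply, 3 were higher and 3 lower, with Slc26a2 at 0.91 ± 0.13 and the PAPS synthase Papss1 at 0.69 ± 0.12.

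Of 11 genes of glutathione synthesis and recycling, 3 were higher and 5 lower, with Oplah at -1.94 ± 0.16 and Slc3a1 at -1.37 ± 0.18. Of 10 membrane-bound and other Gst-like genes, 2 were higher and 3 lower, with Ptges, a prostaglandin E synthase, at 1.21 ± 0.18 and Clic4 at -0.67 ± 0.09. Of 12 other conjugating enzymes, 0 were higher and 6 lower, with the arsenic methyltransferase As3mt at -0.56 ± 0.11 and Acsm5 at -0.52 ± 0.13. Of 16 transcriptional regulators of such enzymes, 5 were higher and 9 lower, with the NRF2 partner Maff at 2.68 ± 0.18 and the NRF2 antagonist Bach1 at -1.73 ± 0.11. All values in this list of pathways are log2 fold changes of F4/80+ over kidney with the SE, and each named gene passed the edgeR test.

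The kidney comparison asked whether the transferases differ between Trp/Trp and Arg/Arg kidneys. None of the 40 members tested passed (0 of 14464 genes, or 0%, by edgeR, and 15 genes but 0 members by DESeq2). The median log2 fold change was 0.00 over all genes, -0.13 over 14 Ugt genes, 0.03 over 20 Gst genes and 0.12 over 6 Sult genes. Of the Ugt genes 12 had a value below 0, as did 49.4% of all genes. At an unadjusted p under 0.05 there were 4 members of 40, 1 higher and 3 lower in Trp/Trp, where 5.71% of all genes had such a p, 3.68% higher and 2.03% lower.

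The 5 members with the lowest unadjusted p are given as values, since each had an adjusted p of 0.843 in edgeR. Ugt8a was at 166, 187 and 169 CPM in Arg/Arg and 139, 153 and 134 CPM in Trp/Trp kidneys, a log2 fold change of -0.31 ± 0.07 (SE). The genotypes did not overlap for it. Ugt2b37 was at 109, 93.3 and 90.5 CPM and at 66.1, 82.7 and 85.8 CPM, a log2 fold change of -0.33 ± 0.12, again without overlap. Ugt1a6b, at 2.39, 1.90 and 1.61 CPM and at 1.39, 1.44 and 1.24 CPM, had -0.54 ± 0.24, but 79.8% of its words are shared, above all with Ugt1a6a.

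Gstm2, another mu-class gene, was at 61.8, 66.0 and 70.2 CPM in Arg/Arg and 78.9, 68.5 and 78.1 CPM in Trp/Trp kidneys, a log2 fold change of 0.17 ± 0.07. Gstm1, with the values given above, had 0.15 ± 0.07. Sult1a1 was the member whose Trp/Trp kidneys all lay above the Arg/Arg kidneys, though the nearest values were almost equal. Its values were 29.95, 31.1 and 31.7 CPM in Trp/Trp against 24.7, 27.9 and 29.94 CPM in Arg/Arg. In all, the genotypes did not overlap for 1 member with Trp/Trp higher and 3 with Trp/Trp lower, where this held for 6.60% and 3.67% of nuclear protein-coding genes.

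Marker sums of macrophages and of T, NK and B cells differed between the kidneys of the genotypes. Macrophage markers summed to 189, 192 and 177 CPM in Arg/Arg and 309, 215 and 257 CPM in Trp/Trp kidneys, and T, NK and B cell markers to 9.63, 6.76 and 7.49 CPM and to 30.5, 11.2 and 11.8 CPM. Neither sum overlapped between the genotypes, while that of the neutrophil markers, at 0.956 to 2.28 CPM, did. The log2 fold change was above 0 for 18 of 18 macrophage and 10 of 10 T, NK and B cell markers tested. It was also above 0 for 12 of 12 fibroblast and mural cell, 10 of 10 endothelial and 6 of 6 podocyte markers. Of these markers 0 passed in edgeR. The value was above 0 for 0 of 2 neutrophil markers and for 50.6% of all genes. Fibroblast, pericyte and smooth muscle markers stood out in Trp/Trp replicate 1 only. Gsta4, which conjugates the lipid peroxidation product 4-hydroxynonenal, was at 80.5 CPM in that library and at 40.5 to 55.5 CPM in the other kidneys. That library had the highest level of 12 of 44 members, where Arg/Arg replicate 1 had it for 10 and Arg/Arg replicate 3 and Trp/Trp replicate 3 for 9 each. The part of these markers in the levels was not tested.

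The F4/80+ comparison asked the same of the preparations. Again 0 of the 34 members tested passed in edgeR (0 of 15225 genes, or 0%), and 0 members passed in DESeq2, which called 11 genes. At an unadjusted p under 0.05 there were 12 members (35.3%), 3 higher and 9 lower in Trp/Trp, where 8.04% of all genes had such a p, 4.43% higher and 3.61% lower. Leaving out Arg/Arg replicate 3 brought that count to 4, and leaving out replicate 1 of the same genotype brought it to 16. The median log2 fold change was -0.54 over members and 0.01 over all genes, and leaving out a library moved the former between -0.34 and -0.77, the ends being reached by omitting replicates 3 and 1 of Arg/Arg. The Ugt median was -0.82, with a value below 0 for 12 of 12 genes where 48.9% of all genes were below 0. The Gst median was -0.18 and the Sult median -0.74.

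**Figure D3:**
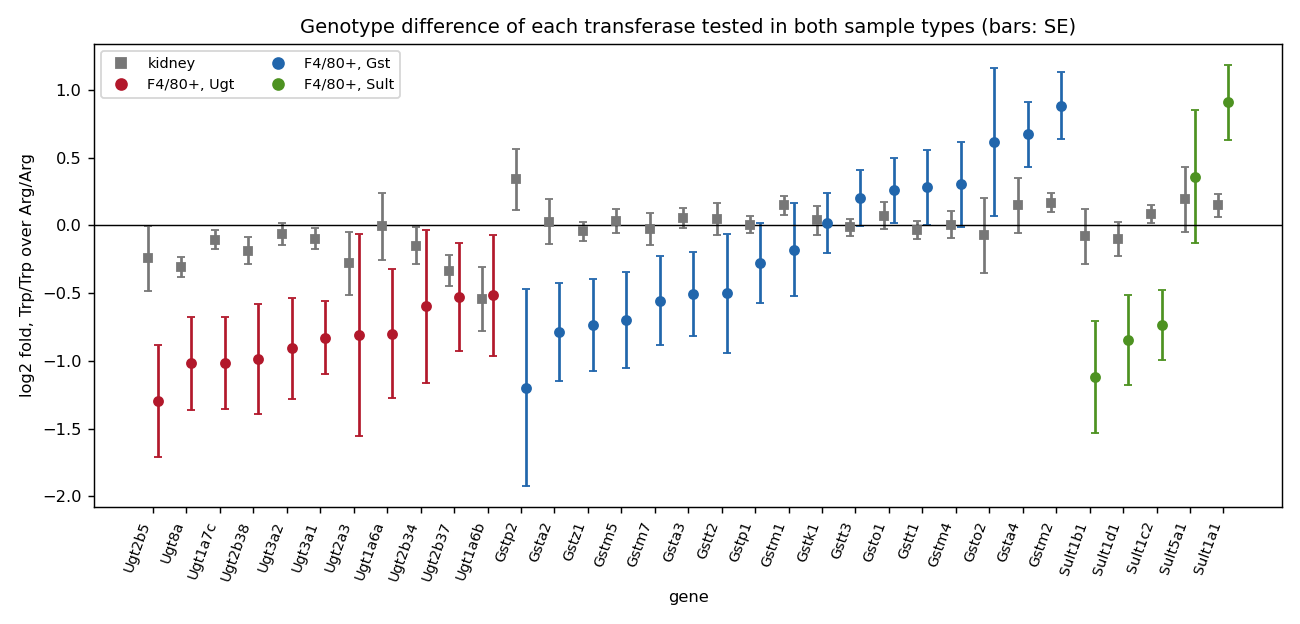
Log2 fold change, Trp/Trp over Arg/Arg, of each member tested in both sample types, with kidney in grey, F4/80+ in colour by family, and bars for the SE. The F4/80+ Ugt genes all lie below 0, the Gst and Sult genes lie on both sides, and the kidney value is nearer to 0 for every gene except Ugt1a6b and Gstk1.

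For the 5 members with the lowest unadjusted p the adjusted value was 0.605 in edgeR. Gstm2 (chr3:107981702-107986453) was at 79.9, 41.8 and 39.9 CPM in Arg/Arg and 102, 97.4 and 117 CPM in Trp/Trp F4/80+ libraries, a log2 fold change of 0.88 ± 0.25. Sult1a1 was at 34.3, 21.6 and 13.4 CPM and at 48.1, 49.6 and 40.6 CPM, a log2 fold change of 0.91 ± 0.28. For both genes every Trp/Trp library lay above every Arg/Arg library, and Arg/Arg replicate 1 lay nearest to them. Ugt3a1, with the values given above, had -0.83 ± 0.27 and did not overlap either, with Trp/Trp lower. Ugt2b5 was at 4.22, 3.92 and 4.60 CPM and at 1.62, 2.70 and 1.44 CPM, a log2 fold change of -1.29 ± 0.41 on 11 to 47 counts, and 41.7% of its words are shared. Ugt1a7c had -1.01 ± 0.34, with overlap between Arg/Arg replicate 1 and the Trp/Trp libraries.

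In all, the genotypes of the F4/80+ libraries did not overlap for 5 members with Trp/Trp higher (Gsta4, Gstm2, Gstm4, Sult1a1 and Sult5a1) and 4 with Trp/Trp lower (Gstm7, Sult1c2, Ugt2b5 and Ugt3a1). These were 14.7% and 11.8% of the 34 members tested, where the same held for 7.88% and 3.04% of nuclear protein-coding genes. For Sult5a1 the nearest values were almost equal, at 2.326 CPM in Arg/Arg and 2.333 CPM in Trp/Trp, on 9 to 26 counts. Gstm4 had a log2 fold change of 0.30 ± 0.31. Sult1c2 was at 104, 120 and 151 CPM in Arg/Arg and 63.3, 91.0 and 97.1 CPM in Trp/Trp. Gsta4 was at 82.0, 42.2 and 40.4 CPM and at 90.5, 105 and 84.5 CPM.

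Markers of tubule segments differed between the same libraries. Proximal tubule markers summed to 33739, 68068 and 62462 CPM in Arg/Arg and 41723, 22028 and 34495 CPM in Trp/Trp F4/80+ libraries, with a log2 fold change below 0 for 20 of 20 genes. Distal nephron and collecting duct markers summed to 16168, 6855 and 6485 CPM and to 14787, 22493 and 14033 CPM, with a value above 0 for 17 of 17 genes tested. Macrophage markers summed to 214, 84.5 and 75.0 CPM and to 184, 281 and 301 CPM. In each of these sums Arg/Arg replicate 1 lay nearer to the Trp/Trp libraries than to Arg/Arg replicates 2 and 3.

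Each member was therefore also given per 1000 CPM of a marker sum, a measure added after the values had been seen. Of the 22 members with a mean of at least 10 CPM, 13 (59.1%) varied less between the 6 F4/80+ libraries per proximal tubule marker than in CPM, where 8.10% of 9246 such genes did. These included 6 of 6 Ugt genes, though the change was small for some of the 13. Ugt2b37 went from 3.29-fold to 2.91-fold and Gstm1 from 2.08-fold to 2.03-fold. Ugt3a2, Gstz1, Gstm5 and Ugt1a7c, given below, were those with the narrowest spans per marker. Ugt3a2, which spanned 3.11-fold in CPM, was at 35.3, 30.5 and 37.6 per 1000 CPM of markers in Arg/Arg and 31.0, 34.3 and 36.9 in Trp/Trp, a span of 1.23-fold. In kidney it was at 31.0 to 33.3 per 1000 CPM. Its level per proximal tubule marker thus lay between 30.5 and 37.6 in all 12 libraries.

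Gstz1, the isomerase of tyrosine breakdown, spanned 2.67-fold in CPM and 1.23-fold per marker, at 3.92 to 4.81 per 1000 CPM in F4/80+ libraries, but at 6.90 to 7.48 in kidney. Gstm5 went from 2.77-fold to 1.29-fold and Ugt1a7c from 2.93-fold to 1.56-fold. Ugt1a7c per 1000 CPM was 1.25 to 1.95 in F4/80+ libraries and 5.98 to 7.16 in kidney, and Ugt3a1 was 1.22 to 2.29 and 4.69 to 5.27. The last 2 were thus lower in F4/80+ libraries relative to those markers as well. The marker sum was itself lower in Trp/Trp, so dividing by it raised the log2 difference of genes in general, with a median of 0.11 in CPM and 0.80 per marker over the 9246 genes. Over the 6 Ugt genes the median was -0.79 in CPM and -0.02 per marker, below that of all genes on either scale.

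Gsta4, Gstm2, Gsto1 and Sult1a1 varied less per distal marker than in CPM. These were 4 of 22 members (18.2%), a share near the 14.0% of all such genes. Gsta4 went from 2.59-fold to 1.34-fold, at 5.07, 6.16 and 6.23 per 1000 CPM of distal markers in Arg/Arg and 6.12, 4.65 and 6.02 in Trp/Trp. Gstm2 went from 2.93-fold to 1.93-fold and Sult1a1 from 3.70-fold to 1.57-fold. Per distal marker their log2 differences between genotypes were -0.06, 0.19 and 0.19, where in CPM they were 0.76, 0.97 and 1.00. The median over all such genes went from 0.11 to -0.84 by the same division, and these genes were picked because their spread narrowed. The other 5 of the 22 members, Gstt1, Gstt3, Gstk1, Gstp1 and Sult1c2, varied less in CPM than per marker of either kind. The part of these markers in the genotype values was not tested.

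**Figure D4:**
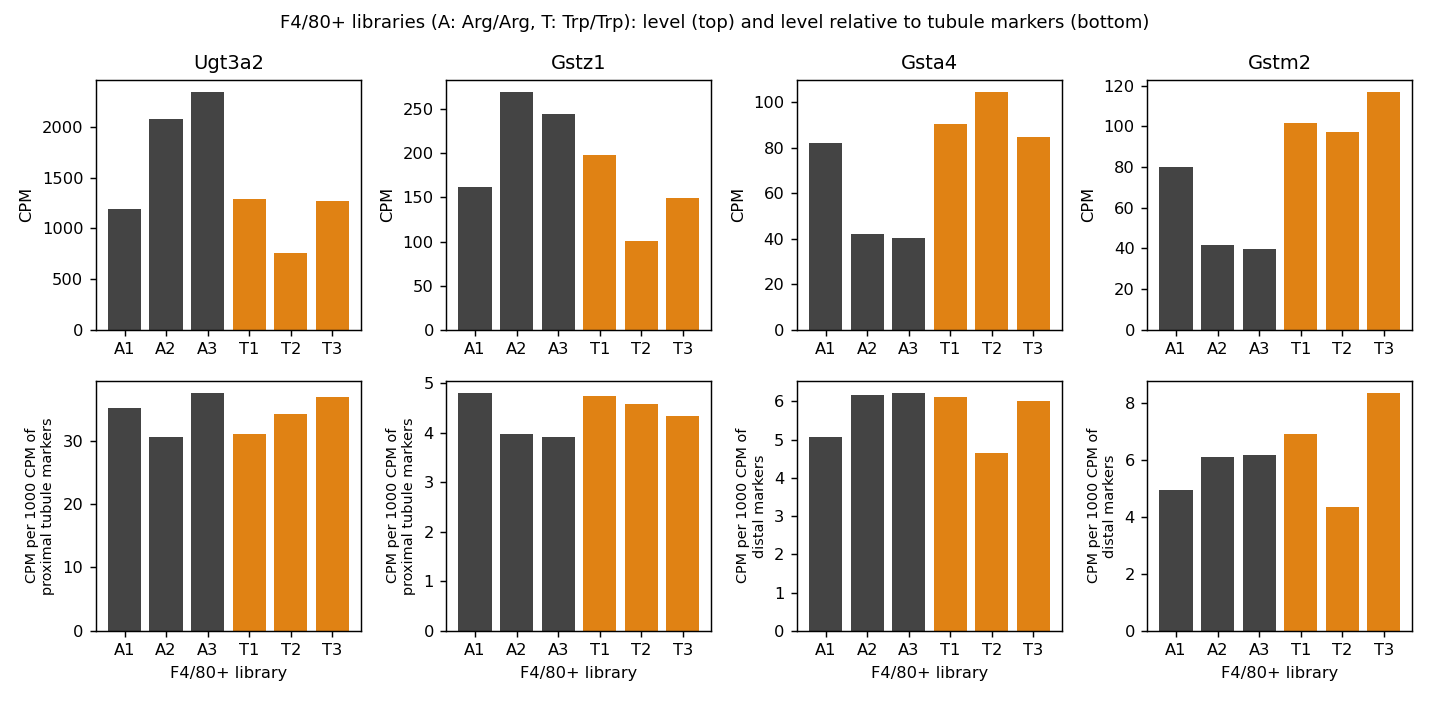
CPM (top) and CPM per 1000 CPM of tubule markers (bottom) of 4 members in the 6 F4/80+ libraries, with Arg/Arg (A) in grey and Trp/Trp (T) in orange. Ugt3a2 and Gstz1, which had the narrowest spans of all members per proximal tubule marker, are nearly level on that scale. Gsta4 and Gstm2 vary less per distal marker than in CPM.

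The pathway lists were read in the same genotype comparisons, and 0 of their genes passed in either sample type. In F4/80+ libraries the median log2 fold change was -0.91 over 11 other conjugating enzymes. It was -0.53 over 6 genes of UDP-glucuronate and related sugar nucleotides and over 10 of glutathione synthesis. Over 14 genes of the mercapturate pathway, of which 14 were below 0, it was -0.51. It was -0.28 over 11 genes of PAPS and sulfate supply, -0.23 over 14 of anion and conjugate transport and hydrolysis, and -0.14 over 16 regulators. The 10 membrane-bound and other Gst-like genes had a median of 0.29. Slc13a1, the sulfate transporter of the proximal tubule, had -1.14 ± 0.29, Papss2 had -1.20 ± 0.37, the sugar nucleotide transporter Slc35d1 had -0.78 ± 0.25 and Slco4c1 had 1.02 ± 0.36 (SE, edgeR adjusted p = 0.605 for each). In kidney the list medians lay between -0.07 and 0.03, and Slc22a7, an organic anion transporter, had the smallest p, with -0.79 ± 0.27 (SE, edgeR adjusted p = 0.843).

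The difference between the genotype effects of the sample types was fitted as an interaction over all 12 libraries. It called 0 of 36 members and 0 of 13578 genes (0%) in edgeR, and 0 members among 7 genes in DESeq2. At an unadjusted p under 0.05 there were 7 members (19.4%), 2 above and 5 below 0, where 6.78% of all genes had such a p, 3.22% above and 3.56% below 0. The value was below 0 for 26 of 36 members and for 49.1% of all genes. The 3 members of smallest p were Sult1c2 at -0.83 ± 0.27, Ugt3a1 at -0.75 ± 0.27 and Gstm2 at 0.69 ± 0.26, on the log2 scale and with an edgeR adjusted p of 0.684 each. The count of members called was sensitive to Arg/Arg F4/80+ replicate 1, for a reason that was not tested. Without it 580 of 13701 genes and 4 of 37 members were called, namely Ugt1a7c at -1.24 (edgeR adjusted p = 0.0210), Gstm2 at 0.97 (0.0241), Sult1c2 at -1.02 (0.0348) and Sult1a1 at 1.02 (0.0448). That library was left out because every library was left out in turn, and its tubule marker sums are those given above.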

How the data were processed

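Poly(A) RNA of 12 libraries (4 groups of 3) was read from 2 deposited tables of raw counts per gene, whose whole numbers are the authors' own. The submitters' processing notes name STAR, DRAGEN, DESeq2 and mm10, without roles or versions. Other deposited columns (log2 fold change, ratio, p-value, score and signal) were not used for results. Members, lists and tests were chosen with earlier results of these data known. Counts were fitted with R 4.3.3 and edgeR 4.0.16 (quasi-likelihood, limma 3.58.1, Benjamini-Hochberg, threshold 0.05) after filterByExpr (minimum count 10, total 15). Each genotype fit used its whole table with TMM scaling. Sample types and their interaction used the nuclear protein-coding genes of both tables, scaled by their sum, with TMM for the interaction. The procedure was tested on simulated data. An SE is the absolute log2 fold change divided by the square root of F, so it restates the test. DESeq2 1.42.0 was an alternative. Replicates are labelled biological. CPM are over nuclear protein-coding counts. Exon lengths and gene coordinates are those of GENCODE M21 (mm10), which matched the tables for all 45 members. Whether counting used strand is not stated. The text names, per family and sample type, the 4 highest members per length, per genotype comparison the 5 of smallest p, the 3 of the interaction, the 5 largest called changes each way between sample types among members of at least 1 CPM, and up to 2 genes per pathway list. Others were chosen after their values were seen. Figures used matplotlib 3.10.9 under Python 3.11.15.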

Additional observations from a re-analysis of the deposited data

Results flagged for a closer look

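A processed pseudogene outside the rule, Gstm2-ps1, had reads in every F4/80+ library, between 26 and 49 counts. It was picked out because it lies outside the members and has no row in the kidney table, which holds protein-coding genes only. It shares 14.1% of the 50-base words of Gstm1.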

How the results depend on the processing

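The count of members called stayed at 0 for the genotype in kidney and in F4/80+ libraries under DESeq2 size factors, the DESeq2 Wald test, no filter on low counts, nuclear protein-coding genes only, the replicate block and each library left out. Leaving out a library gave 22 to 26 members between sample types and 0 to 4 for the interaction, the latter without Arg/Arg F4/80+ replicate 1. Of the named members' values under these alternatives, 327 kept their direction and their side of the threshold, none was reversed, 1 no longer passed (Gsto2 between sample types) and 2 passed anew (Sult1c2 and Gstm2 in the interaction), all 3 without that library. The cause was not tested. Correlations between the deviations of same-numbered samples ran from -0.486 to 0.180. Between F4/80+ Arg/Arg replicate 2 and Trp/Trp replicate 1 the value was 0.483. With 3 libraries a group, such values cannot settle whether the numbers pair samples, and the main fits used no pairing. With the replicate block the calls were 0, 0, 23 and 0 in kidney, F4/80+, sample type and interaction, and members with an unadjusted p under 0.05 were 3, 10, 23 and 6. Between sample types 8 were then higher and 15 lower. Without TMM the interaction median of all genes was 0.14. Depth limits members such as Sult2a3, Ugt1a9 and Ugt2b5, with few counts a library. Kap was left out of the proximal tubule sum as well, which moved the span of Ugt3a2 from 1.23-fold to 1.40-fold.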
